A study of Rattus norvegicus with 6 samples.

Results

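Complement is a plasma and tissue cascade of proteases and their targets that marks damaged cells and microbes. The 9 genes described here are C1qa, C1qb, C1qc, C1s, C3, C5ar1, Cfb, Cfd and Serping1, chosen by symbol from the 30957 genes of the deposited table, and each symbol matched 1 row. C1q, built from the A, B and C chains, starts the classical pathway, and its protease C1s cleaves C4 and C2. The alternative pathway joins factor B (Cfb) to C3b and is driven by the protease factor D (Cfd). Both lead to cleavage of C3 and then C5, whose fragment C5a acts on leukocytes through C5ar1, while Serping1 encodes the C1 inhibitor that blocks C1r and C1s. Tissue macrophages are the best-known source of C1q, and adipocytes of factor D, which is also called adipsin.

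The libraries came from the flexor digitorum longus, a toe-flexing muscle of the hind limb, of wild-type Sprague-Dawley rats. The 3 ACS libraries were taken at 18 h of acute osteofascial compartment syndrome, induced with a tight low-elastic band around the knee, and the 3 Control libraries at 0 h. The treatment field reads ACS for all 6 libraries, so groups were taken from the titles, and the labels used here give neither age nor sex. No group without the band at 18 h was among the samples, so the band and the time passed cannot be told apart. Whether each library of a group is a rat of its own is not in the labels, so every p-value measures the spread among these libraries, which could be technical.

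Ribosomal RNA was removed from total RNA before sequencing, and the libraries held 14340865 to 21003928 counts. Genes of the mitochondrial chromosome took 43.4% of the counts of ACS replicate 1, against 4.82% to 8.60% in the other libraries, so ACS replicate 1 stood apart. Muscle fibre genes were abundant in all 6 libraries, with Acta1 (skeletal actin) at 37372 ± 18534 CPM in ACS and 44007 ± 9636 CPM in Control muscle (SD, n = 3 each). CPM here are counts scaled to library size by TMM, a normalization that sets the bulk of genes level between libraries. FPKM are the authors' values per gene length and library total, and are used wherever the levels of different genes are compared. With edgeR's quasi-likelihood test and a threshold of 0.05 on the adjusted p, 533 of 12873 genes (4.14%) were called, 442 (3.43%) as higher in ACS and 91 (0.707%) as lower, while scaling by library totals gave 345 and 228.

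None of the 8 complement genes that could be tested passed that threshold, against 4.14% of all tested genes, although C3, C5ar1 and C1qc had every ACS library above every Control library in both CPM and FPKM. C3 averaged 5.44 ± 6.25 CPM in ACS and 0.459 ± 0.172 CPM in Control muscle, and C5ar1 averaged 11.0 ± 14.1 and 1.39 ± 0.709 CPM in the same order (SD, n = 3 each). C1qc averaged 15.9 ± 5.21 CPM in ACS and 7.14 ± 0.884 CPM in Control muscle (SD, n = 3 each). C1qa lay at the same level in both groups within its spread. Cfb did not reach the filter on low counts and was not tested.

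By edgeR 0 of 8 were called, and 5 had an unadjusted p under 0.05 (C1qb, C1qc, C1s, C3 and C5ar1). Over all tested genes 15.5% had such a p and were higher in ACS muscle. DESeq2 called 3 of 9 (C3, C5ar1 and C1qc), with 8.97% of its genes called higher, and limma-voom called 0 of 8. Limma on log2(FPKM + 1) called 0 of 7, as C3 and Cfb did not reach its filter on low FPKM and were not tested there. The median log2 fold change of ACS over Control was 1.07 over the 8 tested genes and -0.01 over all tested genes. The same 5 genes had every ACS library above every Control library in CPM, against 16.7% of all tested genes, and none had every ACS library below, against 14.8%. C3 passed the filter on low counts through the ACS group, with 1 Control library at its cut. The 9 were also chosen with earlier results of these data known, so these counts and the median are no support. In bulk muscle a change in the number of cells of a type and a change of RNA per cell cannot be told apart.

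**Figure D1:**
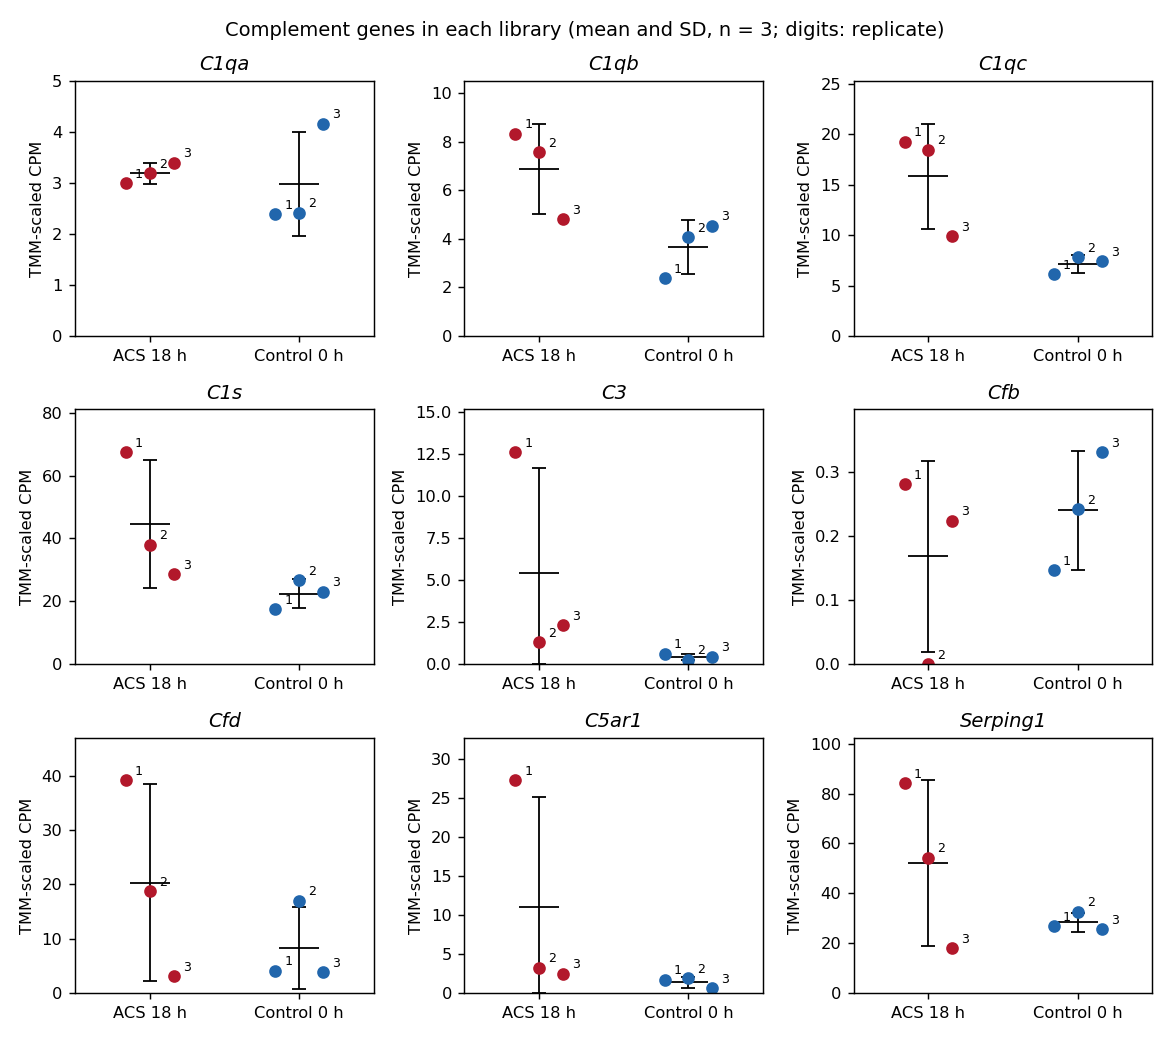
TMM-scaled CPM of the 9 complement genes in each library, with ACS 18 h on the left and Control 0 h on the right of each panel; points are libraries with their replicate digit, bars the mean and SD (n = 3, cut at 0). ACS replicate 1 is the highest library for C3 and C5ar1, at 12.6 and 27.2 CPM, and the C1qa groups overlap.

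Ordered by mean FPKM, Serping1 was the most abundant of the 9 in both groups, at 23.7 ± 12.9 FPKM in ACS and 16.8 ± 2.21 FPKM in Control muscle. Cfd followed at 17.9 ± 13.9 FPKM in ACS and 9.82 ± 8.89 FPKM in Control muscle, then C1qc at 12.9 ± 4.21 and 7.35 ± 1.06 FPKM, C1s at 8.97 ± 2.70 and 5.89 ± 1.30 FPKM, and C1qb at 5.64 ± 1.41 and 3.81 ± 1.26 FPKM in the same order of groups (SD, n = 3 each). Neighbours down to this point had overlapping ranges in both groups, but within each of the 6 libraries C1qc lay above C1s and C1s above C1qb, and Serping1 lay above Cfd in all 3 ACS libraries. In ACS muscle C5ar1 stood sixth at 4.42 ± 5.19 FPKM and C1qa seventh at 2.75 ± 0.540 FPKM, again with overlapping ranges. In Control muscle C1qa, at 3.22 ± 1.19 FPKM, lay above C5ar1, at 0.793 ± 0.396 FPKM, in all 3 libraries. C3 came next at 0.767 ± 0.785 FPKM in ACS and 0.0909 ± 0.0324 FPKM in Control muscle. The row named Cfb was last at 0.0402 ± 0.0348 and 0.0775 ± 0.0318 FPKM. C3 lay above that row in every ACS library, while the ranges of the pair overlapped in Control muscle. A row named C2, in the place Cfb has in a later assembly, averaged 2.76 FPKM in ACS and 1.71 FPKM in Control muscle. The rank of the Cfb gene itself is therefore uncertain. The transcript of the central component was scarcer in this muscle than those of its upstream classical-pathway partners, in both groups.

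C3 is the protein on which all activation routes converge, and is cleaved to the anaphylatoxin C3a and the opsonin C3b. On Rnor 6.0, the rat build of the deposited table, its gene lies on chromosome 9 between 9721105 and 9747167. C3 measured 12.6, 1.34 and 2.34 CPM in ACS replicates 1, 2 and 3, from 135, 26 and 42 counts, against 0.634, 0.290 and 0.454 CPM in Control replicates 1, 2 and 3, from 13, 6 and 11 counts. Every ACS library was above every Control library, and ACS replicate 1 was far above the rest. The log2 fold change was 3.52 (SE 0.878, 95% interval 1.53 to 5.52, edgeR adjusted p = 0.0587). Without ACS replicate 1 it was 1.98 (adjusted p = 0.0631). Leaving out ACS replicate 2 or 3 gave 3.94 (adjusted p = 0.0490) and 3.88 (adjusted p = 0.0342), so C3 passed with either of the last 2 left out. Without ACS replicate 3, calls over all genes also rose, to 1286 higher and 398 lower. Without Control replicates 1, 2 and 3 C3 was at 3.75, 3.23 and 3.47 and did not pass (edgeR adjusted p = 0.201, 0.224 and 0.193). All 3 ACS libraries but only Control replicate 1 reached the filter's cut on low counts, so C3 passed the filter through the ACS group, where it is high.

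The stretch around the start of the C3 gene is shown because C3 had the largest log2 fold change of the 9, and those of C1qb and C1qa because these chains are encoded side by side and had unlike fold changes. Sequences are RefSeq's on the build GRCr8, 250 bases before to 50 after the annotated start, on the gene's own strand, and 4 of the 9 genes had an entry. C3 is at chr9:2201290-2201589, C1qb at chr5:154407778-154408077 and C1qa at chr5:154419884-154420183, all on the minus strand. Capitals mark matches, on either strand, to motifs of C/EBP (TTNNGNAA), PU.1 (GAGGAA) or STAT (TTCNNNGAA) factors, where N is any base. An NF-kB motif was also searched. The stretch of Cfd, the other gene with an entry, held no match to any of these motifs and is not shown.
C3: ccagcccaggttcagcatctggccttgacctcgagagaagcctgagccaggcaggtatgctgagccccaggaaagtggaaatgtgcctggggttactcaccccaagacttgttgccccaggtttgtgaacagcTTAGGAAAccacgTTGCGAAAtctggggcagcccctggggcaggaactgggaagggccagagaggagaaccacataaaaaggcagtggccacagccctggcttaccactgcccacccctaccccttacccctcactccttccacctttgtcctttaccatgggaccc
C1qb: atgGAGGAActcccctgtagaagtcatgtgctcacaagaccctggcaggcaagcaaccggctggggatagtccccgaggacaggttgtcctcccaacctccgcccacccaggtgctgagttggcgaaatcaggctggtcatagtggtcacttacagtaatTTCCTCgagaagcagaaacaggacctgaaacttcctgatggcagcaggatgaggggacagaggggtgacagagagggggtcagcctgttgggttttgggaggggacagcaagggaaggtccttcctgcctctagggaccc
C1qa: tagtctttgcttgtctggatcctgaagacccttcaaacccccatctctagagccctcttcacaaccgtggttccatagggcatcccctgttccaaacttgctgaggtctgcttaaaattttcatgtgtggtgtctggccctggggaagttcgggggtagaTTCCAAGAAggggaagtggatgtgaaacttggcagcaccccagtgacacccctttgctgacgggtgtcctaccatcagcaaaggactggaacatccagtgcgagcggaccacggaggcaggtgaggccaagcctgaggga
The C3 stretch held 2 matches to the C/EBP letters, whose first bases lie at -117 and -104 from the annotated start. The C1qb stretch held 2 matches to the PU.1 letters, at -247 and -90, and the C1qa stretch 1 match to the STAT letters, at -90. None of the 3 held a match to the NF-kB motif. Of 33469 rat promoters of this length, 41.3% held the C/EBP letters, 27.6% those of PU.1, 8.87% those of STAT and 1.53% the NF-kB motif, so all but the last are common, and no motif was found to overlap another in these stretches. A match describes letters and shows no binding.

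The genes of the 3 C1q chains lie together on chromosome 5, within 17.7 kb (positions 155246447 to 155264143 on Rnor 6.0) that hold no other gene row. C1qc encodes the C chain and measured 19.3, 18.5 and 9.88 CPM in ACS replicates 1, 2 and 3, against 6.14, 7.84 and 7.43 CPM in Control replicates 1, 2 and 3. The groups did not overlap, and ACS replicates 1 and 2 were about level. The log2 fold change was 1.15 (SE 0.332, 95% interval 0.39 to 1.91, edgeR adjusted p = 0.0828), and without ACS replicate 3, the lowest ACS library, it was 1.40 (adjusted p = 0.0203). It was 0.99 without ACS replicate 1 (adjusted p = 0.101). Without Control replicates 1, 2 and 3 it was 0.99, 1.16 and 1.13 (edgeR adjusted p = 0.303, 0.254 and 0.230).

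C1qb, which encodes the B chain, measured 8.33, 7.56 and 4.80 CPM in ACS replicates 1, 2 and 3, against 2.39, 4.06 and 4.54 CPM in Control replicates 1, 2 and 3. All ACS libraries were higher in CPM, but ACS replicate 3 and Control replicate 3 lay close together, and in FPKM the groups overlapped. Its log2 fold change was 0.91 (SE 0.381, 95% interval 0.04 to 1.77, edgeR adjusted p = 0.195). C1qa, which encodes the A chain, measured 2.99, 3.19 and 3.40 CPM in ACS replicates 1, 2 and 3, against 2.39, 2.42 and 4.17 CPM in Control replicates 1, 2 and 3. The ACS libraries all lay inside the Control range. Its log2 fold change was 0.09 (SE 0.372, 95% interval -0.75 to 0.94, edgeR adjusted p = 0.900), so a change of nearly 2-fold in C1qa is within the interval, and its sign turned under other scalings.

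**Figure D2:**
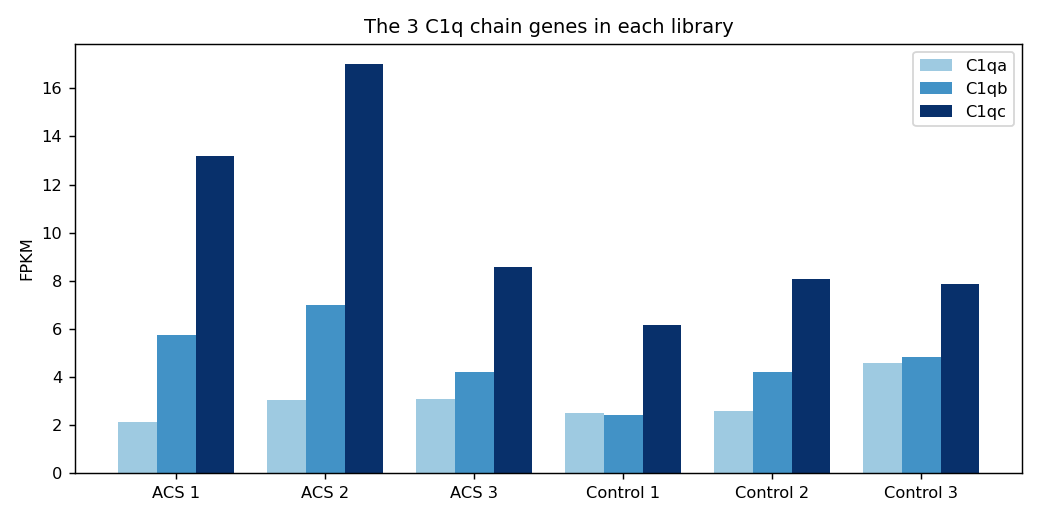
FPKM of C1qa, C1qb and C1qc in each library, ACS 18 h left of Control 0 h. C1qc is the tallest bar in all 6 libraries, and C1qa the shortest in all but Control replicate 1.

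Per gene length, the ratio of C1qc to C1qb was 2.30, 2.43 and 2.04 in ACS replicates 1, 2 and 3 and 2.55, 1.92 and 1.63 in Control replicates 1, 2 and 3. The ratio of C1qc to C1qa was 6.19, 5.57 and 2.79 in ACS replicates 1, 2 and 3, against 2.47, 3.12 and 1.71 in Control replicates 1, 2 and 3. That ratio averaged 4.85 ± 1.81 in ACS and 2.43 ± 0.702 in Control muscle (SD, n = 3 each), and the groups overlapped (two-sided exact permutation test, p = 0.2, where 0.1 is the smallest that 3 libraries against 3 allow). The B and C chains thus kept a narrow ratio over the 6 libraries, of 1.63 to 2.55, and the A chain a wider one to C1qc, of 1.71 to 6.19. The summed FPKM of the 3 chains was 21.3 ± 5.60 in ACS and 14.4 ± 3.16 in Control muscle (SD, n = 3 each), with overlapping groups (exact permutation test, p = 0.2). That overlap holds for FPKM, which are scaled to library totals. In CPM every ACS library was above every Control library for C1qb and C1qc, though not for C1qa, and a sum in CPM was not tested.

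C1s, the protease of the C1 complex, lies on chromosome 4 (157143592 to 157155609). C1s measured 67.5, 38.0 and 28.6 CPM in ACS replicates 1, 2 and 3, against 17.6, 26.8 and 23.1 CPM in Control replicates 1, 2 and 3. In CPM the ACS libraries were all higher, with ACS replicate 3 just above Control replicate 2, and in FPKM the groups overlapped. Its log2 fold change was 0.99 (SE 0.355, 95% interval 0.18 to 1.80, edgeR adjusted p = 0.140), and it was 0.56 without ACS replicate 1 and 1.22 without ACS replicate 3 (adjusted p = 0.240 and 0.0501).

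Serping1, on chromosome 3 (72161189 to 72171078), encodes the serpin that inactivates C1r and C1s and also restrains plasma kallikrein. It measured 84.2, 54.2 and 18.0 CPM in ACS replicates 1, 2 and 3, against 26.8, 32.6 and 25.6 CPM in Control replicates 1, 2 and 3. ACS replicate 3 lay below all Control libraries and the other ACS libraries above them, so the groups overlapped. The log2 fold change was 0.88 (SE 0.479, 95% interval -0.22 to 1.97, edgeR adjusted p = 0.303). Leaving out ACS replicate 3 gave 1.28 (adjusted p = 0.0295), while leaving out ACS replicate 1 gave 0.35 (adjusted p = 0.663). Leaving out Control replicates 1, 2 and 3 gave 0.77, 0.93 and 0.76 (edgeR adjusted p = 0.557, 0.480 and 0.527). The ratio of C1s to its inhibitor's transcript, in FPKM, was 0.353, 0.308 and 0.699 in ACS replicates 1, 2 and 3 and 0.289, 0.362 and 0.397 in Control replicates 1, 2 and 3, again with overlapping groups (exact permutation test, p = 0.7).

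C5ar1, on chromosome 1 (78186776 to 78195328), encodes the main receptor for C5a, which draws and activates neutrophils and macrophages. It measured 27.2, 3.24 and 2.46 CPM in ACS replicates 1, 2 and 3, against 1.71, 1.89 and 0.578 CPM in Control replicates 1, 2 and 3. The groups did not overlap, but ACS replicate 1 alone set most of the distance. The log2 fold change was 2.97 (SE 0.953, 95% interval 0.80 to 5.14, edgeR adjusted p = 0.108). Without ACS replicate 1 it was 1.04 (adjusted p = 0.277), and without ACS replicate 3 the value was 3.44 (adjusted p = 0.0433). Without Control replicates 1, 2 and 3 it was 3.08, 3.19 and 2.54 (edgeR adjusted p = 0.28, 0.26 and 0.28).

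**Figure D3:**
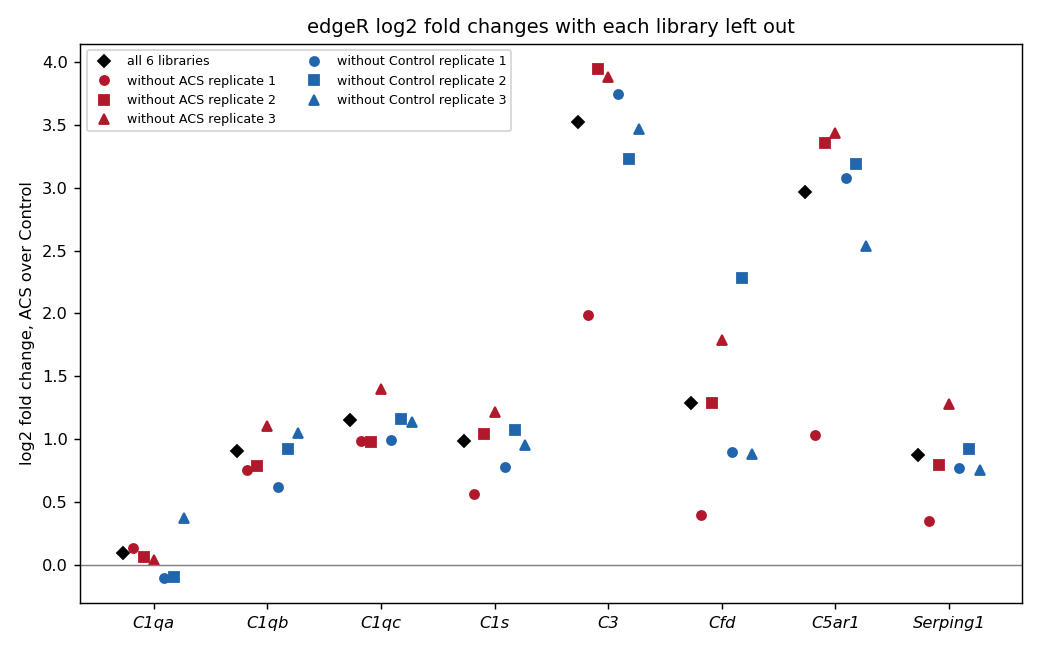
edgeR log2 fold changes (ACS 18 h over Control 0 h) of the 8 tested genes with all 6 libraries and with each library left out. Leaving out ACS replicate 1 moves C3 to 1.98 and C5ar1 to 1.04, while C1qc stays between 0.98 and 1.40.

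Cfd, on chromosome 7 (12634170 to 12636004), encodes the serine protease that cleaves factor B once it is bound to C3b. It measured 39.1, 18.7 and 3.13 CPM in ACS replicates 1, 2 and 3, against 4.10, 17.0 and 3.84 CPM in Control replicates 1, 2 and 3. The libraries of both groups fell into a high and a low range. In CPM, ACS replicates 1 and 2 lay above all Control libraries and ACS replicate 3 below them, so the groups overlapped. The log2 fold change was 1.29 (SE 0.857, 95% interval -0.67 to 3.24, edgeR adjusted p = 0.399), and it was 0.40 without ACS replicate 1, 1.79 without ACS replicate 3 and 2.28 without Control replicate 2. The gene row lies inside a longer row named Hmha1 on the same strand, so some of its reads could belong to either.

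Of 10 adipocyte markers, 5 (Adipoq, Plin1, Cidec, Lep and Retn) had the same 3 highest libraries as Cfd (ACS replicates 1 and 2 and Control replicate 2), and the other 5 did not. The share of all genes with these 3 highest libraries was not counted, so the 5 are a description only. Adipoq (adiponectin) measured 32.0, 3.60 and 2.34 CPM in ACS replicates 1, 2 and 3 and 1.37, 9.33 and 1.53 CPM in Control replicates 1, 2 and 3, and Plin1 (a lipid droplet protein) 13.3, 3.96 and 0.614 CPM and 0.926, 3.19 and 1.28 CPM in the same order. Fabp4, one of the other 5, measured 176, 48.5 and 22.5 CPM in ACS replicates 1, 2 and 3 and 44.4, 51.0 and 87.3 CPM in Control replicates 1, 2 and 3, second highest in Control replicate 3. The list of 10 adipocyte markers had 8 tested and 0 called by edgeR (1 at an unadjusted p under 0.05, and 1 called by DESeq2), no marker at 0 in all libraries, and a summed level of 84.8 to 185 FPKM in ACS and 115 to 193 FPKM in Control muscle, led by Fabp4. The part of adipocytes in the Cfd values was not tested.

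Cfb encodes factor B, which supplies the protease of the alternative-pathway convertase. The row named Cfb held 3, 0 and 4 counts in ACS replicates 1, 2 and 3 and 3, 5 and 8 counts in Control replicates 1, 2 and 3. With no filter on low counts its log2 fold change was -0.64 (edgeR adjusted p = 0.750). These counts say little about the gene, because on Rnor 6.0 its row (chromosome 20, 4536263 to 4561062) overlaps, on the same strand, a pair of rows both named C2. The row next to Nelfe (4536203 to 4542947), one of the pair, occupies the place that Cfb has between C2 and Nelfe in RefSeq's later rat assembly. That row measured 19.8, 11.5 and 5.08 CPM in ACS replicates 1, 2 and 3 and 4.88, 4.74 and 7.56 CPM in Control replicates 1, 2 and 3, with overlapping groups (log2 fold change 1.08, SE 0.485, edgeR adjusted p = 0.222). The other C2 row (4542340 to 4561152) measured 12.8, 11.0 and 7.53 CPM in ACS and 4.53, 3.63 and 4.13 CPM in Control replicates 1, 2 and 3, with no overlap (log2 fold change 1.35, SE 0.323, edgeR adjusted p = 0.0549). The labels do not state how reads in the overlap were assigned, so the level of Cfb is uncertain.

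Beside these 9, a list of 44 other complement genes was examined, all found in the table. By edgeR 3 of the 27 tested rose in ACS muscle and 0 fell, against 3.43% and 0.707% of all tested genes. Of those that rose, Ptx3 had only 2 Control libraries at the filter's cut on low counts and C5ar2 only 1. Both passed the filter through the ACS group, where they are high, so the count is no support. The median log2 fold change of the 27 was 0.76. Of 16 initiators and recognition proteins, 9 were tested and Ptx3 rose. Ptx3, a long pentraxin that binds C1q and factor H, measured 124, 22.6 and 16.4 CPM in ACS replicates 1, 2 and 3, against 0.683, 0.339 and 0.743 CPM in Control replicates 1, 2 and 3. The groups lay far apart in every library (log2 fold change 6.50, SE 0.917, edgeR adjusted p = 0.0153; 5.02 without ACS replicate 1). Leaving out Control replicates 1, 2 and 3 in turn gave log2 fold changes of 6.54, 6.17 and 6.66 that did not pass (edgeR adjusted p = 0.121, 0.115 and 0.0791).

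Around the C1 complex, C1r, the protease that activates C1s, averaged 68.9 ± 27.5 CPM in ACS and 29.4 ± 4.54 CPM in Control muscle (log2 fold change 1.23, SE 0.339, edgeR adjusted p = 0.0748). C4b, a substrate of C1s, averaged 57.9 ± 35.3 CPM in ACS and 18.3 ± 9.48 CPM in Control muscle (log2 fold change 1.66, SE 0.512, edgeR adjusted p = 0.0984). In CPM every ACS library was above every Control library for both, while in FPKM the groups overlapped for both, and the C4b row shares a region and a near-identical sequence with C4a, so its split is uncertain. Masp1, a gene of the lectin pathway, was by FPKM the most abundant of the initiators. It measured 45.5, 46.1 and 131 CPM in ACS replicates 1, 2 and 3 and 76.6, 144 and 56.0 CPM in Control replicates 1, 2 and 3. Its groups overlapped (log2 fold change -0.31, edgeR adjusted p = 0.732). The mannose-binding lectin Mbl2, Colec10 and the pentraxin Apcs had no count in any library, nor had the macrophage receptor Vsig4.

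Of 8 genes for properdin and the terminal pathway, 3 were tested and edgeR called 0 (1 had an unadjusted p under 0.05, DESeq2 called 1, limma-voom and limma on FPKM 0). Cfp, which encodes properdin, the stabilizer of the alternative-pathway convertase, measured 5.71, 6.43 and 6.03 CPM in ACS replicates 1, 2 and 3 and 2.93, 2.90 and 2.52 CPM in Control replicates 1, 2 and 3. Its groups were tight and did not overlap (log2 fold change 1.12, SE 0.305, edgeR adjusted p = 0.0728). C7, the most abundant of the terminal genes, averaged 21.0 ± 15.2 CPM in ACS and 9.46 ± 2.81 CPM in Control muscle (edgeR adjusted p = 0.218). C5, C8a, C8b and C9, whose products belong to the membrane attack pathway and are made mainly in the liver, had no count in any library, which allows a level of up to 0.143 to 0.209 CPM of the unscaled library total (3 counts, counting error only); Col1a2 was also listed at 0 in all libraries beside abundant Col1a1, so a row at 0 can be one that collected no reads.

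Of 8 receptors 5 were tested and 2 rose by edgeR, against 3.43% of all tested genes, while limma-voom called 0 of the 5, limma on FPKM 1 of 3 and DESeq2 4 of 7. C5ar2, the second receptor for C5a, measured 2.99, 1.44 and 1.95 CPM in ACS replicates 1, 2 and 3, against 0.488, 0.242 and 0.454 CPM in Control replicates 1, 2 and 3 (log2 fold change 2.40, SE 0.516, edgeR adjusted p = 0.0442). C5ar2 passed the filter through the ACS group, with 1 Control library at the cut. Its ACS libraries lay closer together than those of C5ar1, and without ACS replicate 1 the log2 fold change was 2.08 (adjusted p = 0.0504). It also missed the threshold without ACS replicate 2 (2.57, adjusted p = 0.0578) and without Control replicates 1, 2 and 3 (2.51, 2.10 and 2.47; adjusted p = 0.193, 0.198 and 0.159). Itgam, a chain of complement receptor 3, measured 55.3, 4.94 and 7.98 CPM in ACS replicates 1, 2 and 3, against 1.17, 1.69 and 1.28 CPM in Control replicates 1, 2 and 3 (log2 fold change 4.03, SE 0.901, edgeR adjusted p = 0.0470; 2.22 without ACS replicate 1, adjusted p = 0.0119). Without Control replicates 1, 2 and 3 Itgam was at 3.86, 4.13 and 3.92 and did not pass (adjusted p = 0.200, 0.185 and 0.170), and its row encloses that of Itgax on the same strand, so reads of this pair may not be told apart. Cr1l, the rodent regulator-receptor Crry and the most abundant of the list by FPKM, averaged 39.6 ± 19.8 CPM in ACS and 25.4 ± 0.670 CPM in Control muscle (edgeR adjusted p = 0.319).

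Of 12 regulators 10 were tested and edgeR called 0, as did DESeq2, limma-voom and limma on FPKM, while 1 (Vtn) had an unadjusted p under 0.05. Clu (clusterin, an inhibitor of the terminal complex), the most abundant, averaged 267 ± 94.4 CPM in ACS and 209 ± 85.6 CPM in Control muscle (log2 fold change 0.35, 95% interval -0.56 to 1.27, edgeR adjusted p = 0.623). Cd59, the membrane protein that blocks the terminal complex, measured 66.3, 80.0 and 78.0 CPM in ACS replicates 1, 2 and 3 and 78.6, 107 and 95.1 CPM in Control replicates 1, 2 and 3, with overlapping groups (log2 fold change -0.32, 95% interval -0.87 to 0.23, edgeR adjusted p = 0.454). Vtn (vitronectin), which like Cd59 was named after its values were seen, averaged 12.1 ± 3.84 CPM in ACS and 19.9 ± 2.82 CPM in Control muscle, with every ACS library below every Control library (log2 fold change -0.73, SE 0.300, edgeR adjusted p = 0.187; -1.01 without ACS replicate 1, adjusted p = 0.0465). The median log2 fold change was 0.11 over the tested regulators and 3.69 over the tested receptors. Among these receptors C5ar2 and Itgax passed the filter through the ACS group, with 1 Control library each at the cut. The regulators Cfi and Susd4 also passed through it, with 2 Control libraries each. The filter thus favoured genes that are high in ACS muscle, and whether these lists differ was not tested.

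**Figure D4:**
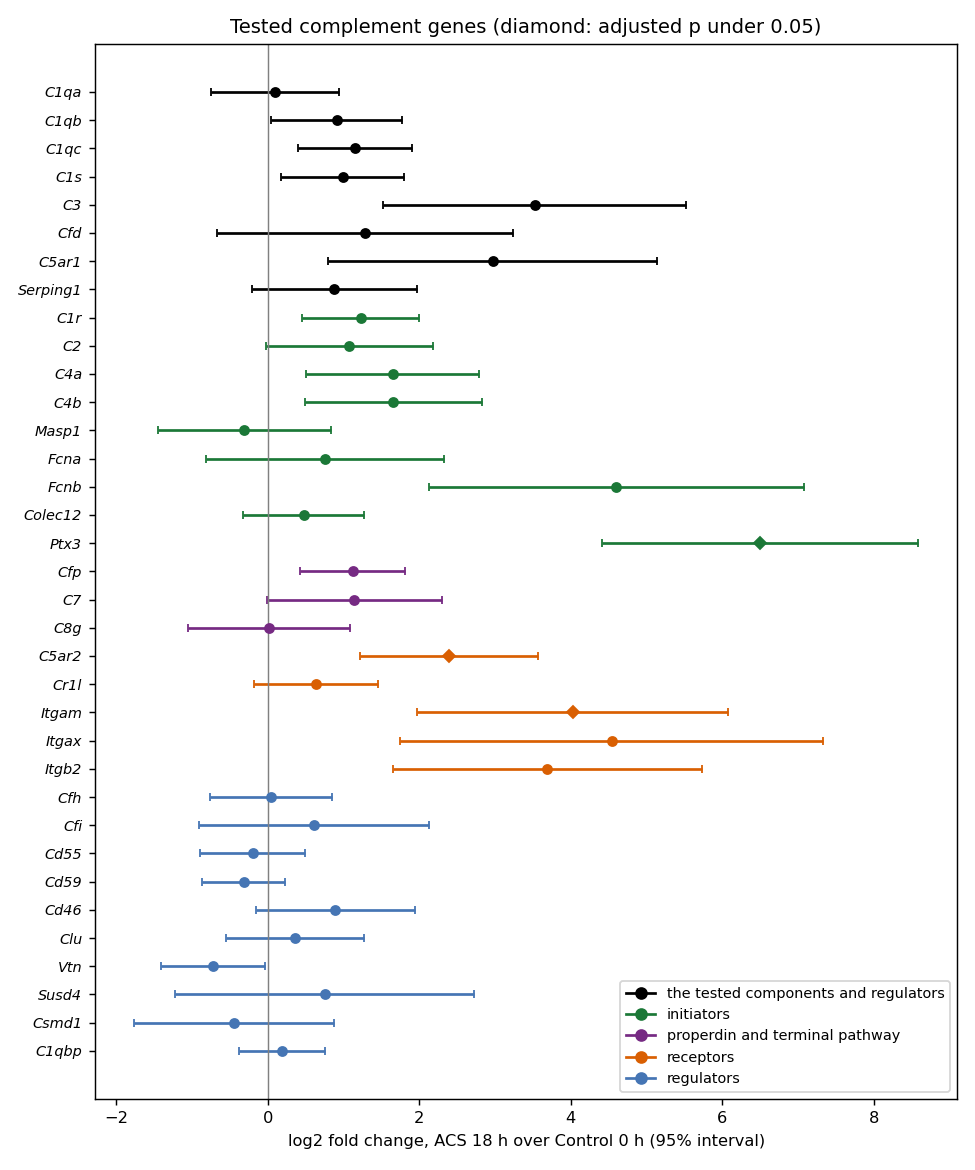
edgeR log2 fold changes (ACS 18 h over Control 0 h) with 95% intervals for the 8 tested complement components and regulators and 27 other complement genes, coloured by role; diamonds have an adjusted p under 0.05. Ptx3, C5ar2 and Itgam carry diamonds, and the regulators lie between -0.73 and 0.89.

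The summed neutrophil and macrophage lists were both highest in ACS replicate 1. The summed FPKM of 12 neutrophil markers was 44.9 to 332 in ACS and 2.67 to 11.0 in Control muscle, led by S100a9 at 122, 4.79 and 26.5 CPM in ACS replicates 1, 2 and 3 and 0.293, 0.387 and 1.73 CPM in Control replicates 1, 2 and 3. Of these 12, 6 passed the filter and edgeR called 6 higher, against 3.43% of all tested genes, while limma-voom called 0 and limma on FPKM 5. In 5 of the 6, fewer than 3 Control libraries reached the filter's cut, so the filter favoured markers that are high in ACS muscle and the count is no support. The 12 macrophage and monocyte markers summed to 91.1 to 1097 FPKM in ACS and 46.9 to 74.4 FPKM in Control muscle, led by Lyz2. None of the 11 tested passed by edgeR (7 at an unadjusted p under 0.05, of which 6 were higher and 1, Adgre1, lower in ACS muscle; 5 called by DESeq2). No marker of either list was at 0 in all libraries. For C1q, the resident macrophage markers Cd163 and Mrc1 measured 46.2, 20.9 and 9.43 CPM and 54.9, 22.5 and 9.15 CPM in ACS replicates 1, 2 and 3, against 3.17, 6.05 and 11.2 CPM and 4.10, 10.1 and 10.3 CPM in Control replicates 1, 2 and 3. Control replicate 1 was the lowest library for C1qb and C1qc and for both markers, which were named after their values were seen. The part of these cells in the C1q, C3 and C5ar1 values was not tested.

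Of the other marker lists, that of red cells alone had a call by edgeR. The 10 fibroblast markers summed to 523 to 611 FPKM in ACS and 262 to 283 FPKM in Control muscle, with 0 of 9 tested called (5 at an unadjusted p under 0.05, 2 called by DESeq2) and Col1a1 leading, while Col1a2 was listed at 0 in all libraries. The endothelial, lymphocyte and muscle fibre lists had 0 called by edgeR of 9, 1 and 8 tested (1, 0 and 0 at an unadjusted p under 0.05) and 0 by DESeq2 of 9, 9 and 8 tested, led by Cdh5, Cd4 and Acta1. In FPKM they summed to 51.4 to 104, 1.71 to 3.72 and 25676 to 72169.9 in ACS and to 76.3 to 109, 2.72 to 4.31 and 59984 to 77853 in Control muscle. The hepatocyte list had only Tf tested, which did not pass (adjusted p = 0.233), and Apoa2, Fgb and Apob at 0 in all libraries; Alb, which defines hepatocytes, had counts in ACS replicate 1 alone, at 0.187 CPM. The hepatocyte list summed to 8.49 to 20.1 FPKM in ACS and 7.80 to 10.1 FPKM in Control muscle. The red cell list, led by Hba-a2, had 2 of 5 tested higher by edgeR, against 3.43% of all tested genes, 6 of 6 by DESeq2 and 1 of 5 by limma-voom, with sums of 2986 to 13523 FPKM in ACS and 863 to 2418 FPKM in Control muscle.

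**Figure D5:**
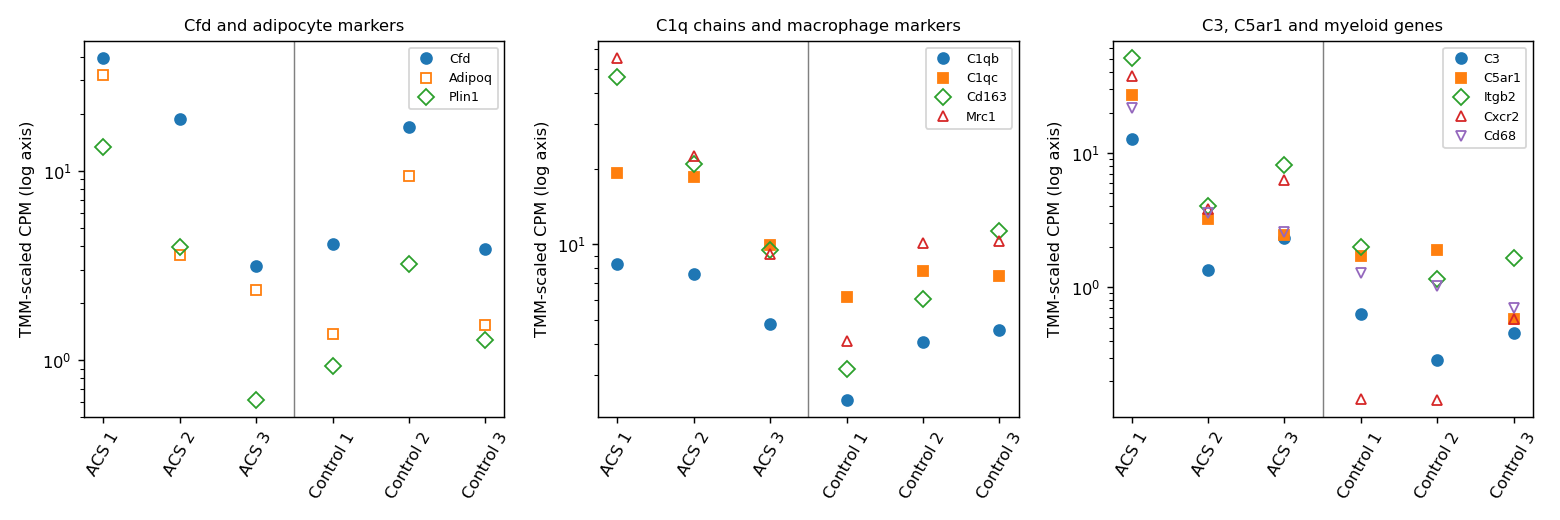
TMM-scaled CPM (log axis) in each library, ACS 18 h left of the line and Control 0 h right of it; filled points are complement genes described in the text, open points markers or Itgb2. Cfd, Adipoq and Plin1 share their 3 highest libraries, while 5 of the 10 adipocyte markers listed do not share them and are not drawn. ACS replicate 1 is highest for C3, C5ar1, Itgb2, Cxcr2 and Cd68.

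The genes whose pattern over the 6 libraries was most like that of C3, by Pearson's correlation of log2 CPM, were Itgb2, Rac2 and Tpm4 (0.998, 0.998 and 0.996). Itgb2, the shared chain of complement receptors 3 and 4, measured 50.5, 4.06 and 8.20 CPM in ACS replicates 1, 2 and 3 and 2.00, 1.16 and 1.65 CPM in Control replicates 1, 2 and 3. The closest to C1qb were Capg, Arl1 and Pawr (0.995, 0.995 and 0.995), and those to Cfd were Phf5a, Snx6 and Rnf25 (0.987, 0.977 and 0.976). These are descriptions over 6 libraries of 2 groups, picked from 12873 genes.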

How the data were processed

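Total RNA depleted of ribosomal RNA was sequenced in 3 ACS and 3 Control libraries, per the labels' protocols. The deposited table holds whole-number read counts per Ensembl gene and the authors' FPKM for 30957 genes. Per the submitters' processing notes, HISAT2 2.0.4, StringTie 1.3.0 and the build Rnor 6.0 were used. The tool that counted reads, its strand setting and how it treated shared reads are not stated there. The authors' FPKM equalled count over gene length and library total within 0.1% in all 17185 genes checked, so depth differences and the mitochondrial share enter FPKM directly.

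Genes were kept with filterByExpr (minimum count 10, minimum total count 15), scaled by TMM and tested with edgeR's quasi-likelihood F test, ACS over Control, with Benjamini-Hochberg adjustment over 12873 genes and a threshold of 0.05. The common biological coefficient of variation was 0.381. SEs were derived from the F statistic, and intervals use its degrees of freedom. The scripts were tested on simulated data. All library pairs differed by more than sampling noise (chi-square per degree of freedom 38.2 to 721). The versions were edgeR 4.0.16, DESeq2 1.42.0 and limma 3.58.1 under R 4.3.3, and matplotlib 3.10.9 under Python 3.11.15.

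The 9 genes and all lists were chosen with earlier results of these data known. Named were the 9, every other complement gene past the threshold, the most abundant of each list, and the 3 genes most like C1qb, C3 and Cfd; C1r, C4b, Cfp, Cd59, Vtn, Adgre1, Plin1, Adipoq, Cidec, Lep, Retn, Cd163, Mrc1, Cxcr2, Cd68 and Alb were added after their values were seen. Where several rows share a symbol, that with the highest count was used. Motif letters were chosen after the fold changes were seen. Alternatives covered normalization, filters, DESeq2, limma-voom, limma on FPKM, a replicate block, the libraries whose description holds "ji" (1 in each group), a 2-fold limit and leaving out each library.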

Additional observations from a re-analysis of the deposited data

How the results depend on the processing

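The count of complement genes called higher among the 9 was 0 and moved to 1 with no filter on low counts (C3), 3 with DESeq2 and 1 with a replicate block (C3); it ran from 0 to 4 with 1 library left out, and 0 were called lower under every alternative run. No pairing by replicate number was seen, though so few libraries cannot exclude one. Same-numbered ACS and Control libraries had deviations correlated at -0.0629, 0.0105 and 0.0397. The block gave 5 other complement genes higher and 442 and 63 genes in all. C1qa turned lower with library totals (-0.22), limma on log2(FPKM + 1) (-0.14, with or without the filter), limma on log2(FPKM + 0.1) (-0.18) and without Control replicates 1 (-0.10) and 2 (-0.09), within a range of -0.10 to 0.37 with 1 library left out. C1qb, C1qc, C1s, C3, C5ar1, Cfd and Serping1 kept their sign under all alternatives that tested them. Library totals and the 2 FPKM scales with the filter moved the median log2 fold change of all genes to -0.32, -0.30 and -0.37.

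Other complement genes called higher numbered 3, and 6 with no filter, 9 with DESeq2, 1 with limma-voom, 1 with log2(FPKM + 0.1), 0 with log2(FPKM + 1) and no filter, 1 with a term for the "ji" libraries, 1 without both of them and 1 with a 2-fold limit, and 0 to 10 with 1 library left out, where 0 to 1 were lower (Vtn, without ACS replicate 1). Of all genes, those higher and lower (442 and 91) numbered 755 and 153 with no filter, 1320 and 429 with DESeq2, 249 and 268 with log2(FPKM + 1), 24 and 13 with that and no filter, 248 and 32 with the "ji" term, 171 and 30 without both "ji" libraries and 89 and 6 with a 2-fold limit. Limma-voom gave 262 higher, log2(FPKM + 0.1) 199 higher and library totals 228 lower. With 1 library left out they ran from 0 to 1286 higher and 0 to 398 lower: without any 1 Control library 0 genes passed, and without ACS replicates 1, 2 and 3 they were 656 and 222, 282 and 17, and 1286 and 398. Depth limits C3, with 6 to 13 counts in each Control library.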
